A study of Mus musculus with 6 samples.

Results

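The microRNA content of the aorta was described in 3 Dicer_WT mice, through every mouse microRNA assay of a TaqMan quantitative PCR card set. The columns of these 3 aortas hold 517 microRNA assays, 335 on card A and 182 on card B, and all 517 were kept; control RNAs and a plant assay were set aside. The mice were males of the genotype LysM-Cre/Dicerwt/wt/Apoe-/-. They were 6 to 8 weeks old when a diet with 21% crude fat began, and they ate it for 12 weeks. LysM-Cre drives recombination in macrophages, neutrophils and related myeloid cells, but with both Dicer alleles wild type it had no floxed Dicer to act on here. Apoe deficiency raises plasma cholesterol and, on such a diet, gives mice atherosclerotic plaques; no lesion measure, normal diet or Apoe-sufficient aorta was used here, so the values describe these 3 vessels and not a response to disease. The labels call the replicates biological, and each aorta was taken as 1 animal. RNA came from the whole vessel after perfusion with a preservative. A vessel wall of this kind holds smooth muscle, endothelium, fibroblasts, perivascular fat and infiltrating leukocytes, and in such bulk RNA fewer cells of a type and less RNA per cell cannot be told apart.

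MicroRNAs are short RNAs that guide Argonaute proteins to messenger RNAs and lower their output. Drosha cuts a hairpin out of a longer transcript, Dicer removes its loop, and usually 1 strand of the remaining duplex is kept; older names mark the less abundant strand with a star. Pairing runs mainly through the seed, bases 2 to 8 of the mature microRNA, so microRNAs with the same seed form a family. In the vessel wall, miR-143 and miR-145 are known for keeping smooth muscle contractile, miR-126 for endothelial integrity, and miR-223 and miR-146a for restraining myeloid inflammation.

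The mature sequences below are those of abundant microRNAs and of close relatives that differed in detection, with the seed in capitals. They come from RefSeq, build GRCm38.p6, and are written 5′ to 3′. The first block holds abundant microRNAs of the aorta and the myeloid microRNA miR-223.
miR-24: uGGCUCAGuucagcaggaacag
miR-30c: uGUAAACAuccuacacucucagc
miR-30a: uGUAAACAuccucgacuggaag
miR-30e: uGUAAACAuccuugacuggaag
miR-26a: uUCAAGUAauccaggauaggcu
miR-126-3p: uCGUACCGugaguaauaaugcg
miR-29a: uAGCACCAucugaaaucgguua
miR-125b-5p: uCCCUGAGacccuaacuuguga
miR-223: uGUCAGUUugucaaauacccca
The mature miR-24 is encoded at both chr8:84208875-84208896 and chr13:63301251-63301272, on the plus strand. MiR-30c is encoded at chr1:23291714-23291736 on the plus strand and at chr4:120769584-120769606 on the minus strand, and miR-26a at chr9:119031811-119031832 and chr10:126995543-126995564, both on the plus strand. MiR-126-3p lies at chr2:26591402-26591423 on the plus strand, miR-29a at chr6:31062673-31062694 on the minus strand and miR-223 at chrX:96242884-96242905 on the plus strand. The sequences of miR-145, miR-143, miR-140, miR-30b and miR-709 were not used here.

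The second block holds relatives that share a seed although 1 was abundant and another gave no product, and the starred arms of miR-30a and miR-30e.
let-7a: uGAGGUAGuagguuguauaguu
let-7c: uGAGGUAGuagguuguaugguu
let-7e: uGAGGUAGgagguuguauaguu
miR-98: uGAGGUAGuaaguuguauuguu
miR-99a: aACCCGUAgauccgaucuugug
miR-99b: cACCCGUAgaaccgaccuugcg
miR-100: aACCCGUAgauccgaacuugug
miR-146a: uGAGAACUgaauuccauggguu
miR-146b: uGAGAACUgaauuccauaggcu
miR-30a*: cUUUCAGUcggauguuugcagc
miR-30e*: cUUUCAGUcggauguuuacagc
All 9 let-7 family members share GAGGUAG, the 3 members of the miR-99 and miR-100 family share ACCCGUA, and the 3 of 5 miR-30 members with a sequence share GUAAACA. MiR-99a and miR-100 differ at 1 base and miR-99a and miR-99b at 4; miR-98 differs from let-7a at 2 bases and miR-146a from miR-146b at 2.

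A TaqMan assay gives Ct, the PCR cycle at which the probe signal crosses a threshold, so a lower Ct means more RNA. An assay counted as detected where Ct was below 35 in all 3 aortas, and wells without product stand at 40. By that rule 361 of 517 microRNA assays (69.8%) were detected, 237 of 335 on card A (70.7%) and 124 of 182 on card B (68.1%). A further 31 were detected in 1 or 2 aortas and 125 in none, of which 119 stood at Ct 40 in all 3. Few wells lay near the limit: 16 of 1551 read between 35 and 40. The plant assay ath-miR159a, which has no mouse target, read 40 on both cards in each aorta.

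The level of a microRNA is given on a log2 scale as the mean Ct of the reference RNAs U6, snoRNA135 and snoRNA202 on the same card minus its own Ct, so 1 unit is a doubling and higher is more. Assays differ in the efficiency of reverse transcription, preamplification and probe, and no standard curve was used here, so ranks between assays are those of assay signal and not of molecules counted. No test between assays was run: an exact two-sided paired test of 3 pairs cannot go below p = 0.25. Differences between assays were taken within each aorta and are set against their SD over the 3 aortas.

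Levels of the 361 detected microRNA assays spanned 22.1 log2 units around a median of -8.38, and 11 stood above the mean of the references. MiR-145 was the most abundant. It read Ct 11.5, 11.9 and 12.0 in aortas 1, 2 and 3, and its levels were 5.39, 5.33 and 5.28. These lay above every other microRNA assay in each aorta, and the SD over aortas was 0.058 log2 units. With levels turned into linear quantities and summed over detected wells, miR-145 made up 41.7%, 42.3% and 44.2% of the summed signal of the 3 aortas, a mean of 42.8% ± 1.31 (SD, n = 3). The sum was concentrated in few microRNAs: the first 5 held 66.0% ± 0.807, the first 10 held 78.7% ± 0.342, the first 50 held 95.4% ± 0.144 and the first 100 held 99.0% ± 0.0459 (SD, n = 3 each). The remaining detected microRNAs therefore divided about 1% among them.

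**Figure D1:**
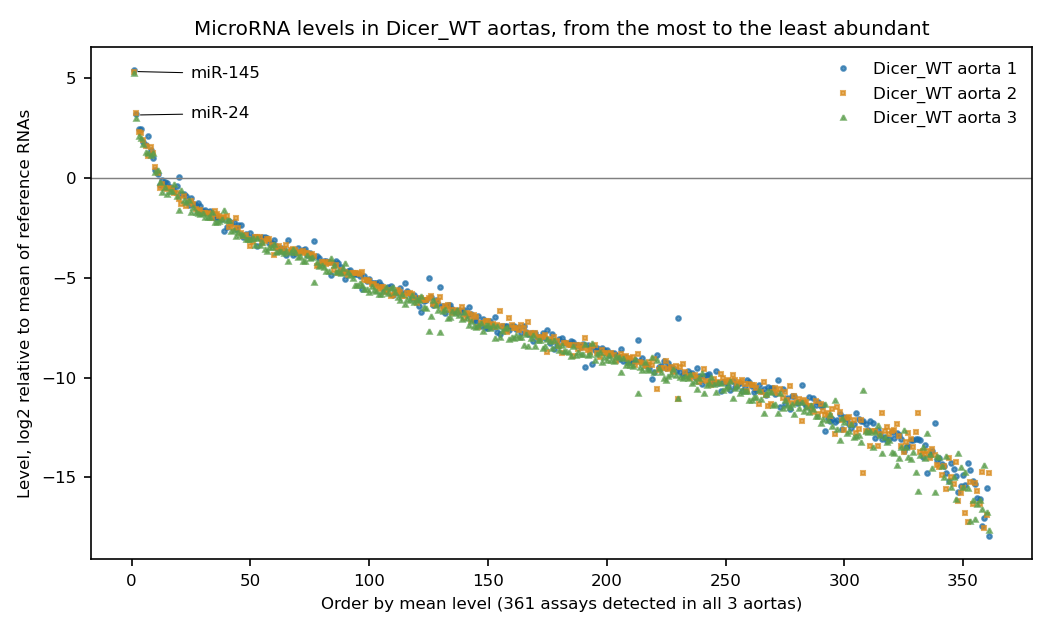
Level of each of the 361 microRNA assays detected in all 3 Dicer_WT aortas (vertical axis, log2 relative to the mean of the reference RNAs) in order of mean level (horizontal axis), with 1 point per aorta. A short steep head led by miR-145 at 5.33 and miR-24 at 3.15 is followed by a long even slope, and the points of the 3 aortas spread apart at the low end.

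MiR-24, known in endothelium for restraining angiogenesis, came next. Its levels were 3.21, 3.24 and 3.00, and it held 9.45% ± 0.488 of the summed signal (SD, n = 3). MiR-145 exceeded it by 2.18 ± 0.0975 log2 units (4.53-fold, SD, n = 3), a gap many times the spread, and the 2 sets of values did not overlap. MiR-24 is cut from the same transcripts as miR-23 and miR-27, yet its level was 75.0-fold that of miR-23a and 31.2-fold that of miR-27b. Those differences were 6.23 ± 0.206 and 4.97 ± 0.0937 log2 units (SD, n = 3), and both held in each aorta.

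MiR-143, cut from the same precursor transcript as miR-145, stood at 2.43, 2.26 and 1.99. It was lower than miR-145 by 3.10 ± 0.166 log2 units (8.60-fold, SD, n = 3), and the values did not overlap. MiR-140, known for its role in cartilage and found in mesenchymal cells, had levels of 2.45, 2.28 and 2.11. It exceeded miR-143 in each of the 3 aortas, by 0.049 ± 0.0592 log2 units (SD, n = 3). The mean difference was below its SD and the values of the pair overlapped, so their order was not taken as resolved.

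MiR-30c followed at a level of 1.79 ± 0.11 (SD, n = 3; Ct 15.1, 15.3 and 15.6) and miR-30b at 1.67, 1.60 and 1.29, both members of a family known in heart and vessel for restraining connective tissue growth factor. MiR-26a, a regulator of smooth muscle differentiation, had levels of 1.40, 1.53 and 1.13. The endothelial miR-126-3p stood at 1.00, 1.25 and 1.27. MiR-30c and miR-30b did not overlap, whereas miR-26a and miR-126-3p did.

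MiR-29a, which targets collagen and other matrix messages, closed the first 10 at 0.38, 0.54 and 0.32. MiR-125b-5p, a microRNA of differentiated mesenchymal and myeloid cells, had 0.18, 0.26 and 0.40, and miR-133a, a muscle microRNA, -0.37, -0.50 and -0.21. Between the endothelial miR-126-3p and miR-29a, and again between miR-125b-5p and miR-133a, there was a gap wider than the spread.

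From place 13 on, each assay among the first 31 overlapped the next, and the order of neighbours was not taken as resolved. Within aortas, the difference exceeded its SD only for miR-30a* over miR-99b (0.243 ± 0.217) and miR-30e* over let-7b (0.182 ± 0.079, SD, n = 3). Both pairs had the same order in each aorta, but their assays lie on different cards. Assays further apart could still be separate, such as miR-19b (-0.11, -0.32 and -0.70) and miR-365 (-1.67, -1.75 and -1.77). MiR-19b (-0.38), let-7e (-0.40), miR-16 (-0.54), miR-191 (-0.54), miR-30a (-0.57), miR-193b (-0.58) and let-7c (-0.69) lay within a fraction of a cycle of each other. MiR-99b (-1.19), miR-484 (-1.22), miR-21 (-1.28), let-7b (-1.55), miR-199a-3p (-1.56), miR-195 (-1.60) and miR-365 (-1.73) formed the rest of the first 30 with the card B assays given next; these are mean levels. Of the 30 pairs of neighbours among the first 31, 6 did not overlap over the 3 aortas and 24 did, and 11 had the same order in each aorta.

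Card B contributed 5 of the first 30, and 3 of them varied widely. MiR-709 read 2.08, 1.09 and 1.23, with an SD of 0.54. MiR-720, which has since been reannotated as a transfer RNA fragment, read 0.04, -1.06 and -1.59 with an SD of 0.83. For both, aorta 1 was highest. The miR-720 assay was kept in all counts and sums, at a mean of 0.635% of the summed signal. MiR-690 (-0.81, -1.32 and -0.58) was highest in aorta 3. The starred arms miR-30a* and miR-30e* were steady, with SDs of 0.14 and 0.10. The reference RNAs do not place both cards on 1 scale exactly: the same control RNA on card B minus card A differed by -0.51 for U6, -0.64 for U87, 0.57 for Y1, 0.42 for snoRNA135 and 0.090 for snoRNA202, as mean log2 levels, so a rank across cards carries an offset of about that size.

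**Figure D2:**
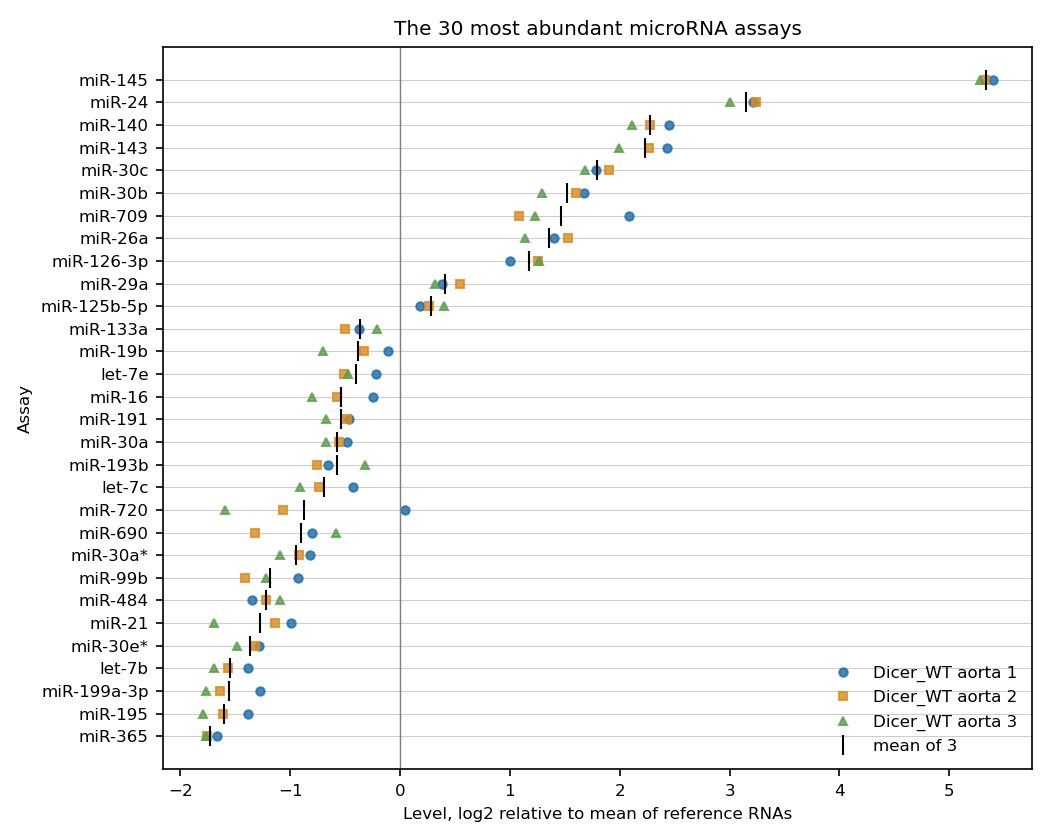
Level (horizontal axis, log2 relative to the mean of the reference RNAs) of the 30 most abundant assays, with 1 point per Dicer_WT aorta and a bar at the mean of 3. MiR-145 and miR-24 stand clear of the rest, most neighbours further down overlap, and the card B assays miR-709 and miR-720 are spread widest.

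Grouped into families by name, 88 assays in 29 families held 33.5% ± 1.17 of the summed signal (SD, n = 3). MiR-145, miR-143, miR-140 and miR-126 belong to none of these families. Members with a sequence shared the seed of their family. No sequence was used for the miR-133, miR-320 and miR-467 families or for some members of other families, so their seeds were not compared. The miR-24 family, with 1 assay, was the highest at 9.45%. The miR-30 family came next with all 5 members detected, at 7.67%, 8.30% and 7.57% in the 3 aortas (mean 7.85% ± 0.396, SD, n = 3). MiR-30c alone gave 46.9% of that sum and miR-30d was the lowest member at -2.91. The miR-26 family held 3.03% ± 0.297, of which miR-26a gave 89.9%.

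The let-7 family, which restrains proliferation and rises as tissues mature, held 3.02%, 2.72% and 2.75% (mean 2.83% ± 0.168, SD, n = 3). Its signal was shared among members. Let-7e led at -0.40 with 28.4% of the family sum, followed by let-7c (-0.69), let-7b (-1.55), let-7i (-1.78), let-7d (-2.06), let-7a (-2.45), let-7g (-2.65) and let-7f (-3.82), as mean levels. The ninth member, miR-98, stood at Ct 40 in each aorta. Among the 28 pairs of the 8 detected members, 1 to 6 bases differed, and an assay can read a relative that differs at a single base in part. Let-7a and let-7c, 1 base apart, were separated by 1.75 log2 units.

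Several families rested on 1 member. MiR-29a gave 90.3% of the miR-29 family (1.57% ± 0.125 of the summed signal), with miR-29c at -3.06 and miR-29b at -5.44. MiR-125b-5p gave 91.6% of the miR-125 family (1.42% ± 0.195), with miR-125a-5p at -3.15 and the relative miR-351 undetected. MiR-19b gave 97.8% of the miR-19 family (0.839% ± 0.112), and miR-222 gave 90.3% of the pair miR-221 and miR-222 (0.296% ± 0.0324); all are mean ± SD with n = 3. The 6 members of the miR-15 and miR-16 family, which act on cyclins and Bcl2, were all detected and summed to 1.19% ± 0.124, of which miR-16 gave 61.7%. In contrast the 6 members of the miR-17 and miR-20 family, oncogenic regulators of the cell cycle, shared 0.459% ± 0.0552 with the top member miR-106a giving 27.1%.

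Relatives with the same seed were at times without product beside an abundant member. MiR-99b stood at -0.93, -1.41 and -1.22, whereas miR-99a and miR-100 stood at Ct 40 in each aorta. MiR-146a stood at -2.02, -1.68 and -2.23, whereas miR-146b stood at 40. The other arm of that hairpin, miR-146b*, was detected at -12.13, -11.50 and -12.56, so the hairpin as a whole was not without signal. The assays without product are not isolated in the genome. MiR-99a lies 710 bases from let-7c on chromosome 16, miR-98 lies 854 bases from let-7f on chromosome X, and miR-351 lies 967 bases from miR-322 on chromosome X, and each of these neighbours was detected. MiR-100 lies 50.5 kb from miR-125b-5p on chromosome 9. Of these neighbours, let-7c, let-7f and miR-125b-5p are each encoded at 2 loci, so their signal does not show that the copy beside the assay without product was the source; miR-322 has 1 locus. The starred arm let-7c-1*, which belongs to the copy on chromosome 16, was detected at -10.49, -10.31 and -10.70. By comparison miR-99b, let-7e and miR-125a-5p, 150 and 429 bases apart on chromosome 17, were all detected. Whether the empty wells reflect the tissue or the assay was not tested.

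**Figure D3:**
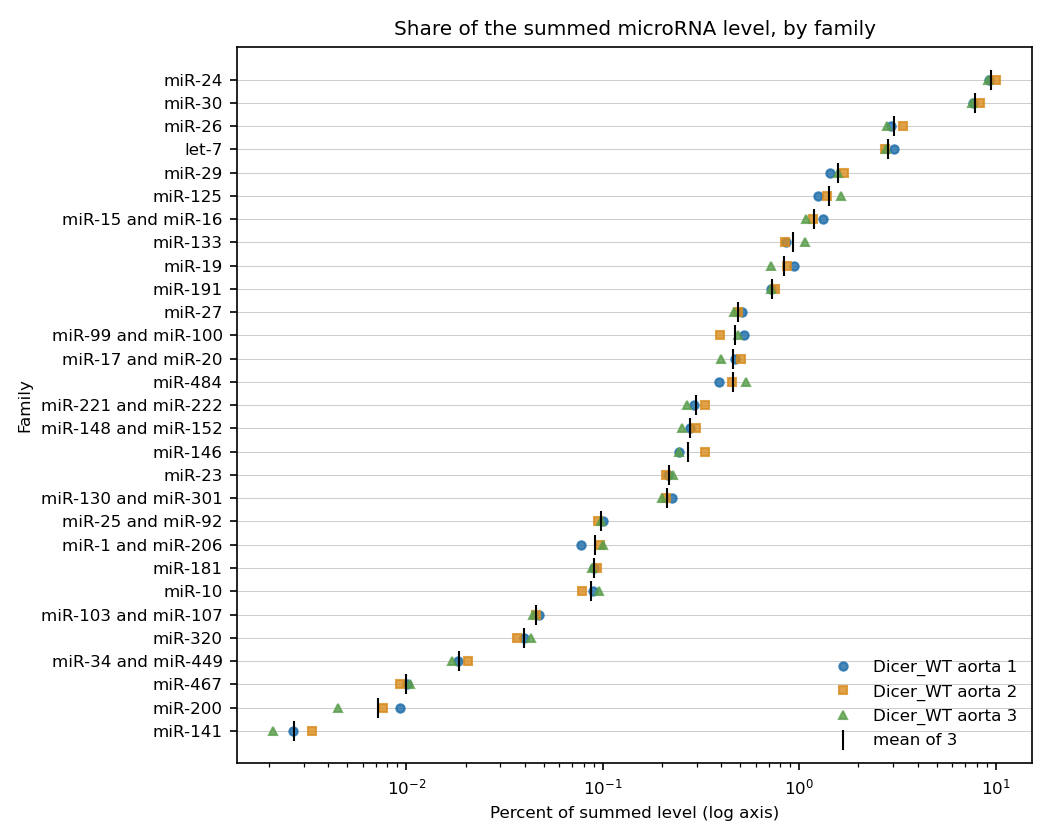
Percent of the summed microRNA signal (horizontal log axis) held by each of 29 families grouped by name, with 1 point per Dicer_WT aorta and a bar at the mean of 3. MiR-24 and miR-30 lie at the top with 9.45% and 7.85%, and the epithelial families miR-200 and miR-141 at the bottom, below 0.01%.

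The labels give macrophage as the cell type and aorta as the tissue. Lists of microRNAs abundant in a cell type, though not exclusive to it, were read for their share of the summed signal. Smooth muscle microRNAs led by far: miR-143, miR-145 and miR-145* held 47.1%, 47.4% and 48.8%, a mean of 47.8% ± 0.895 (SD, n = 3), and all 3 assays were detected. The 6 assays of the myeloid list were all detected but held 0.517%, 0.696% and 0.503%, a mean of 0.572% ± 0.108 (SD, n = 3). The smooth muscle share lay far above the myeloid share in each aorta, so the values are described here as those of a whole aorta and not of macrophages.

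Within the myeloid list, miR-223, the classical granulocyte and monocyte microRNA, had levels of -2.58, -2.02 and -2.89. MiR-145 exceeded it by 7.83 ± 0.430 log2 units (228-fold, SD, n = 3) and miR-143 by 4.73 ± 0.388 (26.5-fold). MiR-146a, a feedback inhibitor of NF-kappaB signalling, gave 47.7% of the list. The macrophage microRNA miR-511, which lies in an intron of the mannose receptor gene, read -9.21, -8.96 and -9.42. MiR-342-3p was even at -3.26, -3.36 and -3.45, and miR-147, induced by Toll-like receptors, read -12.30, -13.86 and -15.75.

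The microRNAs of all leukocytes, miR-142-3p and miR-142-5p, held 0.113% ± 0.0142 (SD, n = 3). This was below the mean myeloid share of 0.572% and the mean lymphoid share of 0.273%, although myeloid and lymphoid cells are leukocytes. A list share thus depends on the assays listed and does not measure the contribution of a cell type. MiR-142-3p read -3.25, -3.04 and -3.46, and it was 85.3-fold above miR-142-5p. The difference, 6.41 ± 0.0166 log2 units, varied little between aortas, with both assays on card A. The inflammation-induced list held 0.483% ± 0.0844, of which miR-21 gave 91.8%. MiR-21 read -0.99, -1.14 and -1.70, and miR-155, the inducible microRNA of activated macrophages and lymphocytes, was far lower at -7.81, -6.68 and -8.00. MiR-155, miR-223, miR-146a, miR-142-3p and miR-511 were each highest in aorta 2, whereas miR-342-3p, miR-147 and miR-21 of the same lists were highest in aorta 1.

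Lymphoid microRNAs held 0.162%, 0.275% and 0.382%, nearly all of it miR-150, a microRNA of mature B and T cells. MiR-150 read -2.66, -1.95 and -1.59, lowest in aorta 1 and highest in aorta 3. Its SD of 0.54 log2 units was above the median SD of 0.190 for assays with a mean Ct below 20.

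Endothelial miR-126-3p and miR-126-5p held 2.16%, 2.80% and 3.02%, a mean of 2.66% ± 0.443 (SD, n = 3). The 3p arm exceeded the 5p arm by 3.33 ± 0.139 log2 units (SD, n = 3). The fibroblast and mesenchymal list held 5.67% ± 0.295 with 6 of 6 assays detected, but 90.7% of this was miR-140. MiR-199a-3p, a fibroblast microRNA encoded at 2 loci, stood at -1.27, -1.64 and -1.77. MiR-214, which lies near 1 of these loci, on chromosome 1, stood at -2.77, -3.40 and -3.05.

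Striated muscle microRNAs held 1.02% ± 0.137 (SD, n = 3). MiR-133a gave 82.1% of this, at -0.37, -0.50 and -0.21, miR-133b stood at -3.55 and miR-1 at -3.65 as means. None of the microRNAs that lie within heavy chain myosin genes was detected in all 3 aortas. MiR-208 read Ct 29.0, 40 and 30.1, miR-499 read 31.04, 40 and 40, and miR-208b was undetected. The wells of miR-208 and miR-499 that gave product thus lay inside the limit of Ct 35. The brown fat and adipose list, led by miR-193b with 61.4% of it, held 1.18% ± 0.194, and all 4 assays were detected. MiR-365, encoded at 2 loci of which 1 lies near miR-193b on chromosome 16, read -1.67, -1.75 and -1.77.

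MicroRNAs of organs outside the vessel were low. The erythroid list held 0.111%, 0.0705% and 0.0309%, the hepatocyte and gut list 0.0674%, 0.0430% and 0.0270%, and the epithelial list 0.0396% ± 0.0102 (SD, n = 3). The erythroid and the hepatocyte and gut lists were highest in aorta 1 and lowest in aorta 3, whereas the smooth muscle and endothelial shares were lowest in aorta 1 and highest in aorta 3. That latter order was the order of miR-145 and miR-126-3p. The share of miR-143 went the other way, at 5.35%, 5.07% and 4.53%, and that of miR-126-5p was highest in aorta 2. Shares of 1 sum also depend on each other. On the level scale, however, miR-145 and miR-143 were also highest in aorta 1 and lowest in aorta 3, over ranges narrower than those of miR-451, miR-486, miR-122 and miR-192. The neuronal list held 0.0192% ± 0.00183 with 9 of 10 assays detected, led by miR-9, and the pancreatic and endocrine list 0.00214% ± 0.0013 with 2 of 4 detected. The germ line list, with 1 of 15 detected, held 2.62e-04%, and of the 12 pluripotency microRNAs none was detected in all 3 aortas, 9 in no aorta and 3 in 1 aorta each, at a share of 8.85e-06%. The smallest of these shares are the least stable: with 1 cycle as a factor of 1.9 the germ line share was 2.15 times as large, and with a Ct limit of 32 the pluripotency share was 0.

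**Figure D4:**
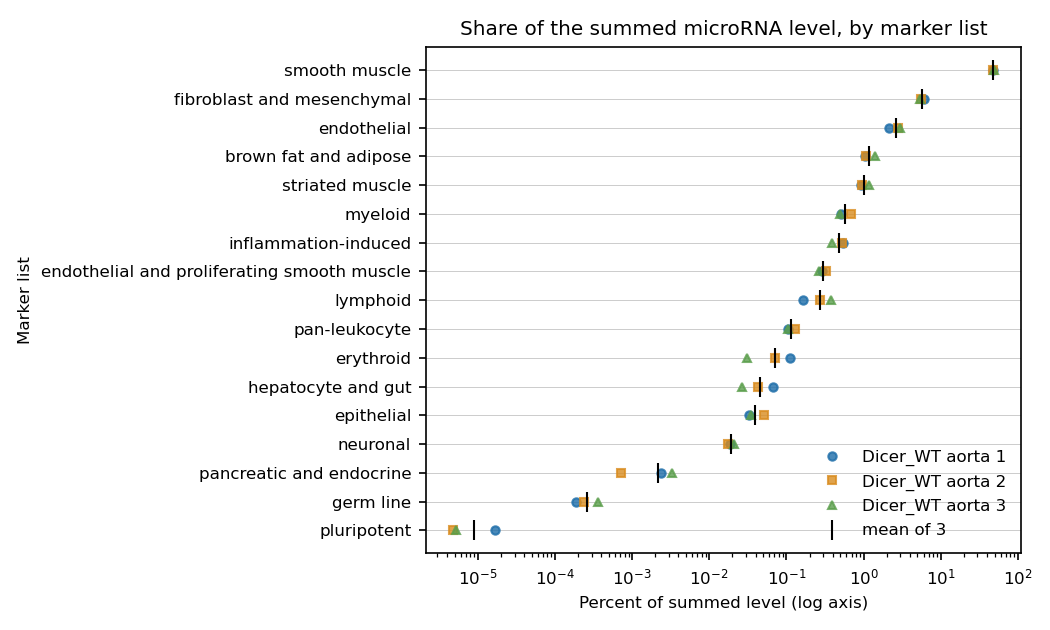
Percent of the summed microRNA signal (horizontal log axis) held by each of 17 lists of cell type microRNAs, with 1 point per Dicer_WT aorta and a bar at the mean of 3. Smooth muscle lies near 47.8%, the leukocyte lists lie between 0.113% and 0.572%, and the erythroid and the hepatocyte and gut lists are highest in aorta 1 and lowest in aorta 3.

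The 3 aortas were close to each other in most assays. Across the 361 detected assays, Spearman's rho between pairs of aortas was 0.990 to 0.992 and Pearson's r 0.987 to 0.991, a description across assays of the same cards and not of independent replicates. The median SD over aortas was 0.190 log2 units for the 48 assays with mean Ct below 20, 0.194 for the 123 between 20 and 25, 0.289 for the 147 between 25 and 30 and 0.596 for the 43 between 30 and 35. The spread was thus about the same down to a Ct of 25 and wider beyond; these SDs hold differences between animals as well as measurement error, which cannot be told apart without repeat wells. A range of over 1 log2 unit was seen in 63 of 361 (17.5%), of which aorta 3 was lowest in 36.

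Of the 10 assays with the largest SD, 7 had a mean Ct above 29, where the median SD was also wider. The other 3 were more abundant. MiR-678, the least even of all, read -7.04, -11.07 and -11.01, high only in aorta 1. MiR-122, the hepatocyte microRNA, read -5.02, -6.03 and -7.69, and miR-200c, an epithelial microRNA that keeps E-cadherin expressed, read -8.12, -8.82 and -10.79. Both were highest in aorta 1 and lowest in aorta 3. Among the remaining 7, miR-205 read -13.10, -11.80 and -15.70, and miR-216b, miR-136*, miR-147, miR-488, miR-383 and miR-470* ranged by 2.74 to 4.16 log2 units.

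The order of miR-122 was shared by the red cell microRNAs. MiR-451, known for being cut by Argonaute-2 in place of Dicer, read -3.17, -3.92 and -5.22, and miR-486 read -10.14, -10.79 and -11.78. MiR-192, of liver and gut, read -5.27, -5.93 and -6.30. Against this, the smooth muscle microRNA miR-143 had the same order over a narrower range, 2.43, 2.26 and 1.99. The part of residual blood or of adjoining tissue in these values was not tested.

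Starred arms were mostly, but not always, the lower ones. Of 110 starred assays 84 were detected, against 277 of 407 unstarred ones, and they held 1.40% ± 0.0411 of the summed signal (SD, n = 3). In 73 of 101 hairpins with both names on the cards, both arms were detected. The unstarred arm was higher in each aorta in 60 and the starred arm in 13, with a median excess of the unstarred arm of 4.21 log2 units (18.5-fold). The widest was miR-145 over miR-145*, at 15.8 log2 units. In 69 of these 73 pairs the arms lay on different cards, so a difference below about 1 unit falls within the card offset given above.

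The first 100 microRNAs included 3 starred arms, miR-30a*, miR-30e* and miR-24-2*. MiR-30a* read -0.82, -0.92 and -1.09, below miR-30a by 0.37 ± 0.0379 log2 units, and miR-30e* read -1.29, -1.32 and -1.48, above miR-30e by 0.66 ± 0.073 (SD, n = 3). Both gaps lie within the card offset. Both arms of these hairpins were thus abundant, and their seeds differ, GUAAACA on one and UUUCAGU on the other.

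In 10 of the 13 hairpins with a higher starred arm, the mean excess was over 1 log2 unit. The smallest of these, miR-872* at 1.08 ± 0.26 (SD, n = 3), was not clear of the card offset, and the others lay above it. The largest were miR-7a* at 5.85, miR-330* at 5.72, miR-877* at 5.43 and miR-193* at 4.14 log2 units above the unstarred arm, as means. MiR-877 and miR-877* lie on the same card, so no card offset enters that value. The others of the 10 were miR-135a*, miR-141*, miR-467a*, miR-376b*, miR-183* and miR-872*. Names with both arms given as 5p and 3p made 47 pairs, 24 with both detected: the 5p arm was higher in each aorta in 11, the 3p arm in 12, and 1 was mixed. MiR-331-3p exceeded miR-331-5p by 12.3 and miR-125b-5p exceeded miR-125b-3p by 11.6 log2 units.

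**Figure D5:**
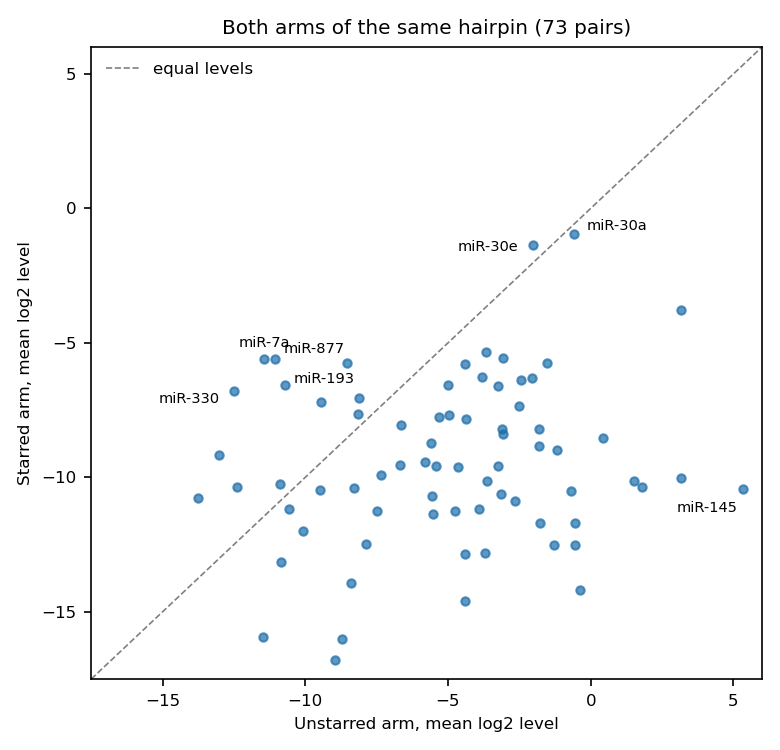
Mean level of the starred arm (vertical axis) against the unstarred arm (horizontal axis) in log2 units relative to the reference RNAs, for the 73 hairpins with both arms detected. Most points lie below the dashed line of equal levels; 13 lie above it, among them miR-7a, miR-877, miR-330, miR-193 and miR-30e.

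MicroRNAs encoded close together were detected together to different degrees. RefSeq loci of build GRCm38.p6 were found for 454 of the 517 assays, and 22 groups of at least 2 neighbouring hairpins on the same strand, with steps of at most 10 kb, held at least 3 assays each. In 8 of them every assay was detected in all 3 aortas and in 2 none was. The imprinted Dlk1-Dio3 region of chromosome 12, a large source of microRNAs in embryo and placenta, was broadly present at low level: 14 of 19 assays in chr12:109563692-109595388, led by miR-127 at -3.71, and 32 of 45 assays in chr12:109709060-109747960, led by miR-411 at -5.56, or 46 of 64 in all (71.9%). That share lies near the 69.8% of all assays detected.

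The pluripotency groups had no assay detected in all 3 aortas, with 0 of 13 of chr7:3218626-3220841 (Mir290a to Mir295) and 0 of 8 of chr3:127545228-127545807 (Mir302b to Mir367). MiR-291a-3p, miR-292-3p and miR-295 of the first group and miR-367 of the second were each detected in 1 aorta, miR-367 at Ct 31.07. The germ line group of chrX:66776757-66839125 had 3 of 19 detected, miR-878-3p, miR-881* and miR-470*. The proliferation group Mir17 to Mir92-1 of chromosome 14 had 7 of 8, led by miR-17 at -3.13. Counting by locus says only where an assay's microRNA can come from, since microRNAs with copies at loci outside 1 group were left out.

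At the edge of detection, the 5 detected microRNAs with the highest mean Ct were miR-582-3p, miR-488, miR-136*, miR-615-5p and miR-331-5p, with mean Ct of 33.5, 33.5, 33.4, 33.3 and 33.0. The 5 just outside, by mean Ct, were miR-30c-1*, miR-344, miR-208, miR-217 and miR-343. Each of these read 40 in 1 aorta and 31.2 or lower in the other two. MiR-344 read 27.9, 28.2 and 40, and miR-30c-1* read 40, 27.9 and 27.8. In all, 18 assays read below Ct 32 in 1 aorta and 40 in another, 7 of them detected in 2 aortas and 11 in 1, such as miR-467e* at 40, 28.2 and 40 and miR-509-3p at 40, 40 and 28.8. For these 18 a well without product and a tissue without the microRNA cannot be told apart.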

How the data were processed

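Per the labels, total RNA of each aorta was isolated with a mirVana kit, reverse-transcribed, preamplified and read with FAM-labelled TaqMan probes. The Ct values deposited by the authors are a score for each well, and empty reactions stand at 40. A further deposited table holds relative quantities, a linear ratio, and was used only as a check. For this, the level of each assay was centred on its mean over the 3 aortas. The deposited log2 values then matched the reference scheme used here to 1.45e-07 on card A. On card B they differed from it by up to 0.05, and by up to 2.21e-07 once snoRNA429 was joined. Centring removes differences between assays, so the check covers the choice of references and not ranks or shares. The threshold, software and card version were not given in the sources used here.

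Levels, shares, ranks and SDs were computed with Python 3.11.15, pandas 2.3.3 and numpy 2.4.6, and the scripts were tested on simulated data. No test was run. The repeat of the first control row starts card B. Wells at or above Ct 35 added nothing to sums, and 1 cycle counted as a factor of 2. The microRNAs, families and cell type lists were chosen with earlier results of these data known. Assays were named by rule: the first 30, list members, the 10 with the largest SD, 5 on each side of the detection limit, starred arms among the first 100, and control RNAs. Arms, neighbours and loci were described with them, and assays that appear there beyond this rule were picked with their values in view. Unstarred names were matched to mature arms by hand; 87 of 98 had a RefSeq sequence, and loci without a hairpin entry were placed by their mature sequences. Other references, cutoffs, a factor of 1.9, card A alone and leaving out each aorta were tried; the references U87 and Y1, and miR-145 left out of the sum, were added after seeing the data. The Dicer_KO aortas were not analysed here.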

Additional observations from a re-analysis of the deposited data

How the results depend on the processing

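The share of the 10 most abundant assays was 77.8% with U6 alone, 79.0% with snoRNA135 and snoRNA202, 78.2% with snoRNA429 joined, 77.9% with no reference, 82.3% on card A alone and 73.4% with 1 cycle as a factor of 1.9. MiR-145 gave 45.8% on card A alone and 36.9% with a factor of 1.9, let-7 3.03% and 3.43%, and miR-30 8.39% and 8.34%. Smooth muscle gave 46.4% with U6 alone, 46.6% with no reference and 41.9% with a factor of 1.9, and myeloid 0.733% with that factor. Without miR-145 in the sum, the first 10 of the remaining assays held 65.0%. Let-7 then held 4.95%, miR-30 13.7%, the endothelial list 4.66% and the myeloid list 0.998%. These family and list shares rose because the sum lacked the signal of miR-145. Detected assays numbered 340 below Ct 32, 368 below Ct 38, and 363 to 367 with 1 aorta left out. The same 10 assays came first in each setting but card A alone (9 of them) and miR-145 left out (9), and miR-145 was first wherever it was included. With miR-145 kept in the sum, 10 of 48 shares moved by over 1.5 times in some setting, 9 of them most with the factor of 1.9: the hepatocyte and gut (1.54 times), epithelial (1.55), neuronal (1.70), pancreatic and endocrine (1.87) and germ line (2.15) lists and the miR-34, miR-467, miR-200 and miR-141 families; the pluripotency list was 0 at Ct 32. With miR-145 left out, 45 of 46 did. No paired analysis was possible because 1 group was used and its results come from no test; differences between assays of the same aorta were only described. The card offset limits ranks across cards, and levels beyond Ct 30 had the widest spread.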
